A study of Homo sapiens with 6 samples.

Results

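The 32 genes described here encode proteins of DNA repair and all 5 human RecQ helicases, and their RNA was followed in KYSE-150, a line grown from a human squamous carcinoma of the esophagus. They were listed by name and pathway, with earlier results of these data known, so shares of the list are described and not tested. All 32 were found among the 29816 genes of the deposited table. Cells received either si-circTMEM45A, which targets a circular RNA whose name points to the gene TMEM45A, or the control si-NC. PolyA RNA was sequenced in 3 libraries of each group. Both groups are the same line and received a small interfering RNA, so an untreated state is not part of the comparison. The labels name 1 small interfering RNA for the target and give no time after transfection. Separate cultures are not named, so a p-value here reflects the spread among these libraries alone, and it may be technical. The total of gene-assigned reads was 16636248 to 17323964 per library.

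Human cells remove damage by parallel routes. Homologous recombination copies a sister chromatid to mend a broken double helix after nucleases have resected the ends, and the Fanconi anemia pathway feeds crosslinked DNA into that route. End joining seals breaks directly after the Ku heterodimer binds them. Mismatch, base excision and nucleotide excision repair correct replication errors, small base lesions and bulky adducts. RecQ helicases unwind the branched structures that arise at stalled forks and in recombination, and the kinases ATM and ATR signal the damage. Many of these genes are expressed most in S phase, in part through E2F and NF-Y, factors that bind upstream of their start sites.

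Of the 32 genes 6 fell with si-circTMEM45A and 0 rose. RECQL, the most abundant RecQ helicase in the control cells, fell by 38.9%. EXO1, ATR and FANCD2 fell by 17.5%, 16.5% and 16.2%, and the Ku subunits XRCC5 and XRCC6 fell by 8.53% and 9.21%. The call is an adjusted p under 0.05 in limma, a linear model with pooled variance, run on log2(FPKM + 1) of all 12676 genes that had an FPKM (fragments per kilobase of gene model at a common library size) of at least 1 in at least 3 libraries. All 32 passed that filter. In the same limma fit 7.64% of tested genes fell and 11.1% rose, so the 6 genes are 18.8% of the list against 7.64%. The split of calls over all genes depends on the scaling: 1411 rose and 969 fell here, 1022 rose and 1239 fell with median-of-ratios scaling, and 1119 rose and 1168 fell with quantile normalization. The 32 genes had a median log2 fold change of -0.04, against 0.03 over all tested genes. At an unadjusted p under 0.05 in limma 3 of the 32 were higher, namely XPC, ERCC1 and XRCC1, against 20.3% of all genes, and 8 were lower, against 13.8%. With limma voom on reads recovered from the FPKM values, 2 of the 32 rose and 8 fell, against 15.4% and 11.1% of all genes. These are bulk values, in which fewer cells of a kind and less RNA per cell cannot be told apart.

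Only RECQL kept its call when any 1 of the 6 libraries was left out. In those 6 limma fits EXO1 was called when replicate 1 of either group was missing and lost when replicate 2 or replicate 3 of either group was left out (adjusted p 0.0649 to 0.0693). XRCC6 was called only without si-NC replicate 3 (adjusted p = 0.0429) and reached 0.112 in the other limma fits. ATR, FANCD2 and XRCC5 were called in none of the 6 (limma adjusted p 0.0611 to 0.105, 0.0511 to 0.0866 and 0.0515 to 0.117). Leaving out control replicates 1, 2 and 3 gave 2, 1 and 2 of the 32 as lower, against 4.76%, 4.43% and 4.84% of all genes. For knockdown replicates 1, 2 and 3 the counts were 2, 1 and 1, against 7.03%, 4.61% and 4.61%. With no filter on low values 1 gene of the list, RECQL, fell, against 1.76% of all 29816 genes. The count was 7 with median-of-ratios scaling (9.79% of all genes), 7 at FPKM of at least 5 (12.3%, with 1 higher against 17.7%), 5 with quantile normalization (9.21%) and 4 without a variance trend (6.17%).

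**Figure D1:**
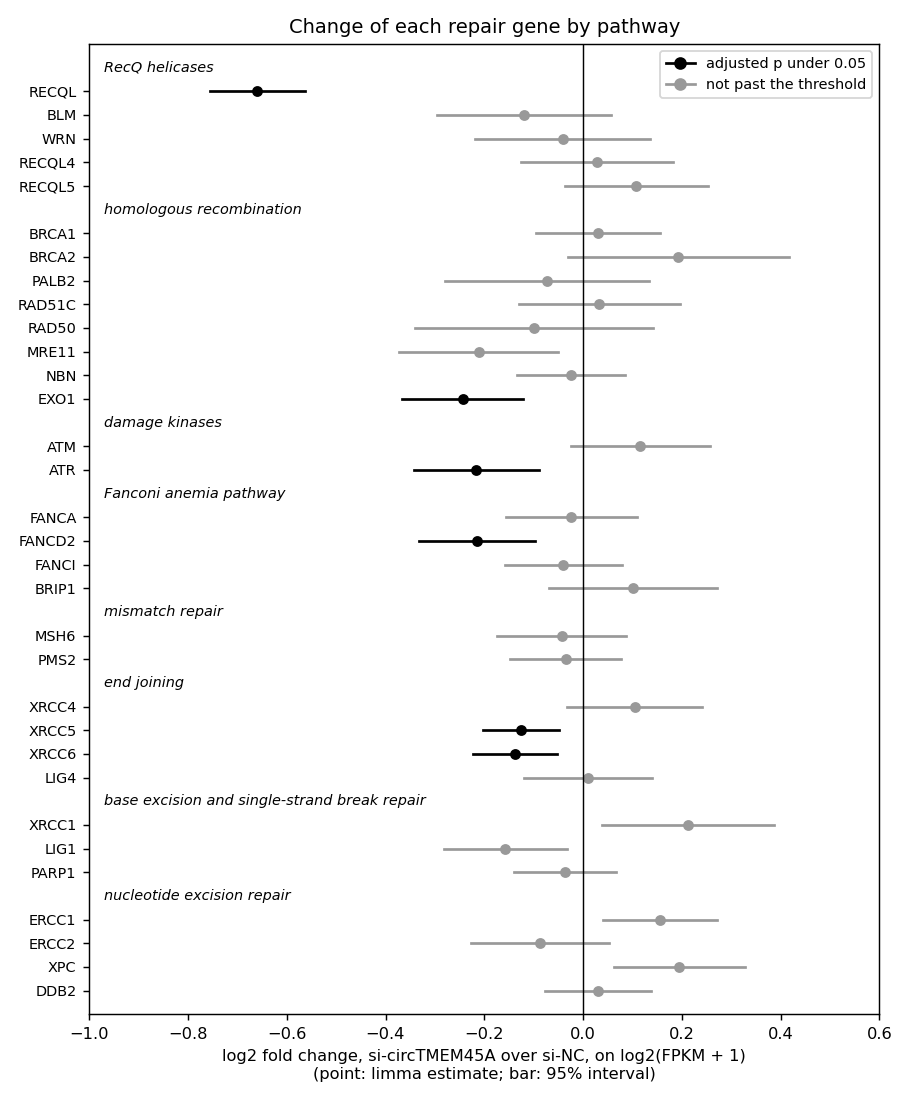
Log2 fold change of each of the 32 genes (si-circTMEM45A over si-NC, on log2(FPKM + 1), x axis), grouped by pathway. Points are limma estimates over 3 libraries a group, bars are 95% intervals, and black marks the 6 genes past the threshold; RECQL at -0.66 lies apart from the other 31.

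The promoters of the genes that fell are shown so that the start regions of genes that moved in 1 direction can be read side by side. RefSeq windows of 300 bases, from 250 before to 50 after an annotated start (GRCh38.p14), were present for 27 of the 32 genes. WRN, RECQL4, NBN, FANCI and XRCC5 had none. Words were searched on both strands: TTCCCGC and TTGGCGC as E2F-type words, CCAAT, the core of the NF-Y site, and GGGCGG, a GC box. A GC box can overlap TTCCCGC read on the other strand. Below, each window reads in the direction of transcription, with the words in capitals. They are RECQL at chr12:21501586-21501885 on the minus strand, EXO1 at chr1:241847954-241848253 on the plus strand, ATR at chr3:142578684-142578983 on the minus strand, FANCD2 at chr3:10026187-10026486 on the plus strand and XRCC6 at chr22:41621045-41621344 on the plus strand. For EXO1, which has 2 windows, the one nearest the GENCODE start is printed.
RECQL: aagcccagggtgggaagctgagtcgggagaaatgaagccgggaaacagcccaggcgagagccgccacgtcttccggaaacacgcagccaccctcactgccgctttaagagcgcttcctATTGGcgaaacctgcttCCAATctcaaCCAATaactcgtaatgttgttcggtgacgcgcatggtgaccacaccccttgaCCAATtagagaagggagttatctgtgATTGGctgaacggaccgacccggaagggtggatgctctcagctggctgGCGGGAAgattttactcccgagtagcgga
EXO1: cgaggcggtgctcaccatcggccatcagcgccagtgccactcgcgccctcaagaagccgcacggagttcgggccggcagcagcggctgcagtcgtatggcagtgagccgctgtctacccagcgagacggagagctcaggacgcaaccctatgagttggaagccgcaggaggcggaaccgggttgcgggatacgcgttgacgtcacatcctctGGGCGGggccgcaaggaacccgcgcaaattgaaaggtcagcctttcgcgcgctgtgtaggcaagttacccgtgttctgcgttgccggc
ATR: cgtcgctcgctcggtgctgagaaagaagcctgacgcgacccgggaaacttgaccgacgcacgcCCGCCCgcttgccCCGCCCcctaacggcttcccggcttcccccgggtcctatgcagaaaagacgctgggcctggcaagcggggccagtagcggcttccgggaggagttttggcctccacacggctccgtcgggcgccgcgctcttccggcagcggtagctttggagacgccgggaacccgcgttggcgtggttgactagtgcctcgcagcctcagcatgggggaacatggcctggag
FANCD2: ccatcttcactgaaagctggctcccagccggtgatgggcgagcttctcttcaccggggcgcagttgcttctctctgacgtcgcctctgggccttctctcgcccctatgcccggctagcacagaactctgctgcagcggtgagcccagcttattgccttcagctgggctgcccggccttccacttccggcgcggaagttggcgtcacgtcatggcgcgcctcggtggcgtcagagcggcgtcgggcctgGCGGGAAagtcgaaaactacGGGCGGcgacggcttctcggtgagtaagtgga
XRCC6: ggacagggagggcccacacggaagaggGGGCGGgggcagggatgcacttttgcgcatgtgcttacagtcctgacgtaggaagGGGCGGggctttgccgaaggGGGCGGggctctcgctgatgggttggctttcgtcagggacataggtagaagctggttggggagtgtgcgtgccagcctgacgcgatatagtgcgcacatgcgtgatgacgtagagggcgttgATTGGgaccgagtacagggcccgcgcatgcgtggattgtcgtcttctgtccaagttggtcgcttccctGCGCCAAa

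The RECQL window held 5 CCAAT words, from 132 to 27 bases before the start, and 1 E2F-type word 21 bases after it. FANCD2 had an E2F-type word 2 bases before its start, and XRCC6 had 1 E2F-type word and 1 CCAAT word. The EXO1 and ATR windows held GC boxes and neither of the other words. Over the whole list 14 of 27 genes (51.9%) had an E2F-type word in at least 1 window, against 11.0% of the 27305 genes with a window. For CCAAT the shares were 66.7% and 39.7%, and for the GC box 81.5% and 48.3%. The E2F-type word was not limited to genes that fell: it was in the windows of 3 of the 5 that fell and of 11 of the other 22, including XPC, ERCC1 and XRCC1, whose values were higher. A match is a description of these letters, not a site.

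Among the RecQ helicases, which share a helicase core but differ in their partners, RECQL was the one that changed. RECQL (ENSG00000004700; chromosome 12, 21468911 to 21501669, GRCh38, minus strand), a helicase that helps restart reversed forks, was at 16.4, 17.0 and 16.1 FPKM with si-NC and 10.3, 9.82 and 10.1 FPKM with si-circTMEM45A. The groups lie far apart, and the spread within each is under 1 FPKM. The means were 16.5 ± 0.42 and 10.1 ± 0.24 FPKM (SD, n = 3), which gives -0.66 ± 0.04 as log2 fold change (SE; limma adjusted p = 0.000572). Over all 17 alternative fits the limma adjusted p of RECQL stayed between 1.7e-08 and 0.00645. RECQL rested on 626 to 1067 reads per library, and 98 of the 12676 tested genes (0.773%) had a lower log2 fold change. The 95% interval of RECQL, -0.76 to -0.56, lies below the intervals of the other 31 genes, the lowest bound among which was -0.37.

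The 3′ end of RECQL overlaps that of PYROXD1, a gene for an oxidoreductase on the opposite strand, over 41.5% of its exon bases. Without strand, reads from the overlap cannot be told apart, and the strand setting of the counting is not given in the sources used here. PYROXD1 was at 4.36, 4.05 and 3.87 FPKM with si-NC and at 4.44, 3.95 and 4.03 FPKM with si-circTMEM45A. Its groups overlapped (log2 fold change 0.01 ± 0.07, SE; limma adjusted p = 0.913). On its other side RECQL starts 112 bases from GOLT1B, a Golgi transport gene that is read in the opposite direction. GOLT1B was at 15.6, 16.4 and 15.04 FPKM with si-NC and 15.9, 12.5 and 14.2 FPKM with si-circTMEM45A, with overlapping groups (limma adjusted p = 0.285).

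The other RecQ helicases did not pass the test. BLM, the Bloom syndrome helicase that dissolves recombination intermediates, had values of 4.58, 4.12 and 3.84 FPKM with si-NC and 3.88, 3.48 and 3.94 FPKM with si-circTMEM45A. Its 95% interval for the log2 fold change was -0.29 to 0.06 (limma adjusted p = 0.31). WRN, the Werner syndrome helicase and exonuclease, had an interval of -0.22 to 0.14, and RECQL4, which also acts when replication starts, one of -0.13 to 0.18. RECQL5, a helicase that binds RNA polymerase II, was at 4.34, 3.97 and 4.42 FPKM with si-NC and 4.55, 4.94 and 4.47 FPKM with si-circTMEM45A. Its groups did not overlap, but its interval of -0.04 to 0.25 holds 0. The order within the family differed between the groups. With si-NC RECQL was highest, above RECQL4 (13.6 ± 0.17 FPKM; SD, n = 3). With si-circTMEM45A RECQL4 was highest, at 13.9 ± 1.30 FPKM, above RECQL. The log2 ratio of RECQL to RECQL4 was 0.28 ± 0.02 with si-NC and -0.46 ± 0.17 with si-circTMEM45A (SD, n = 3). The RECQL ratio was lower by 0.56 to BLM, by 0.66 to WRN and by 0.84 to RECQL5, without overlap. Each of these 4 ratios, chosen after the values were seen, had an exact two-sided permutation p of 0.1, the smallest that 3 against 3 libraries allow.

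**Figure D2:**
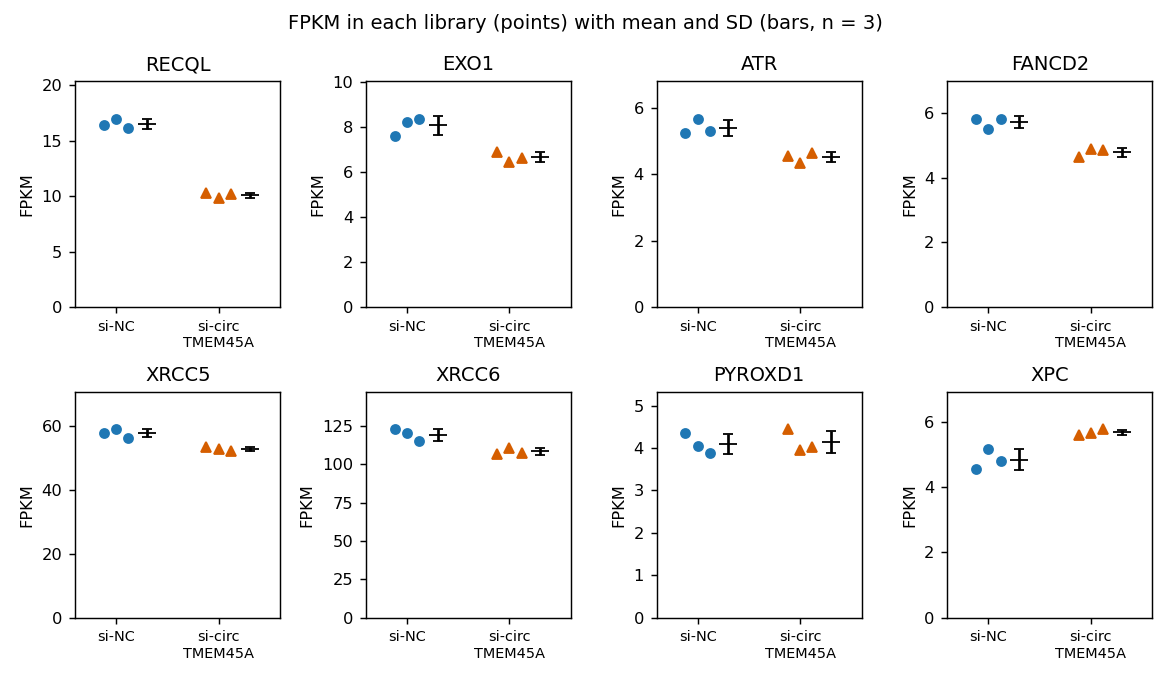
FPKM (y axis, from 0) of the 6 genes that fell, of PYROXD1, whose exons overlap those of RECQL, and of XPC, which was higher at an unadjusted p under 0.05, in each of the 3 libraries a group (points), with the mean and SD (bars). For the 6 genes each si-circTMEM45A library lies below each si-NC library, and for PYROXD1 the groups overlap.

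In homologous recombination EXO1 fell, 0 of the 8 genes rose, and 7 did not pass the test. At an unadjusted p under 0.05 the limma count for this route was 2 lower and 0 higher, against 13.8% and 20.3% of all tested genes. In limma voom BRCA2 was called higher. EXO1 (ENSG00000174371; chromosome 1, 241847967 to 241895148), an exonuclease that lengthens resected ends and removes mismatched strands, was at 7.61, 8.23 and 8.37 FPKM with si-NC and 6.90, 6.44 and 6.62 FPKM with si-circTMEM45A. No value of one group reached the other. The log2 fold change was -0.24 ± 0.05 (SE; limma adjusted p = 0.0206). MRE11, the nuclease that starts resection, was at 9.28, 10.9 and 9.39 FPKM with si-NC and 8.66, 7.97 and 8.48 FPKM with si-circTMEM45A. Its groups did not overlap, and it missed the threshold (log2 fold change -0.21 ± 0.07, SE; limma adjusted p = 0.0733). MRE11 was called lower at FPKM of at least 5, with median-of-ratios scaling and in limma voom (adjusted p = 0.0462, 0.0426 and 0.0104). BRCA2, which loads the recombinase onto single-stranded DNA, was at 3.91, 3.58 and 3.17 FPKM with si-NC and 4.68, 4.28 and 3.65 FPKM with si-circTMEM45A. Its groups overlapped (limma adjusted p = 0.204, and 0.038 in limma voom, where it was called higher).

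BRCA1, which with BARD1 forms a ubiquitin ligase that promotes resection, averaged 6.88 ± 0.18 FPKM in the control and 7.05 ± 0.41 FPKM in the knockdown (SD, n = 3), with a 95% interval of -0.10 to 0.16. PALB2, the bridge between BRCA1 and BRCA2, had an interval of -0.28 to 0.13. For RAD51C, a recombination mediator, it was -0.13 to 0.20, and for NBN, the subunit that recruits ATM, -0.13 to 0.08. RAD50, the coiled-coil partner of MRE11 and NBN, had the lowest level of the 32, at 1.58 ± 0.09 and 1.42 ± 0.20 FPKM (SD, n = 3). In the GENCODE annotation 79.7% of the RAD50 exon bases are also covered by another gene model on the same strand. Its level, and with it the ratio to its partners, is therefore uncertain.

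Of the 2 apical damage kinases ATR fell, and ATM did not pass the test. ATR (ENSG00000175054; chromosome 3, 142449235 to 142578826), which senses single-stranded DNA at stalled forks, was at 5.24, 5.67 and 5.29 FPKM with si-NC and 4.54, 4.34 and 4.64 FPKM with si-circTMEM45A. Every control library lies above every knockdown library. The log2 fold change was -0.22 ± 0.05 (SE; limma adjusted p = 0.0329). A gene model on the opposite strand covers 16.4% of its exon bases. ATM, which responds to broken ends, was at 4.40, 4.94 and 4.51 FPKM with si-NC and 5.33, 5.03 and 4.89 FPKM with si-circTMEM45A. Its groups overlapped (log2 fold change 0.12 ± 0.06, SE; limma adjusted p = 0.223).

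In the Fanconi anemia pathway FANCD2 fell and FANCA, FANCI and BRIP1 did not pass the test. FANCD2 (ENSG00000144554; chromosome 3, 10026414 to 10101930), which is ubiquitinated together with FANCI at crosslinks, was at 5.83, 5.503 and 5.83 FPKM with si-NC and 4.64, 4.88 and 4.86 FPKM with si-circTMEM45A. The groups did not overlap, and the log2 fold change was -0.21 ± 0.05 (SE; limma adjusted p = 0.0269). Its clamp partner FANCI was more abundant and lay at 13.5 ± 0.19 and 13.2 ± 0.80 FPKM (SD, n = 3; limma adjusted p = 0.626). FANCA, a subunit of the core ubiquitin ligase complex, had an interval of -0.16 to 0.11, and BRIP1, a helicase bound to BRCA1, one of -0.07 to 0.27.

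In end joining the Ku subunits fell together. XRCC6 (ENSG00000196419; chromosome 22, 41621119 to 41664048), which encodes Ku70, was the most abundant of the 32 genes, at 123, 120 and 115 FPKM with si-NC and 107, 111 and 107 FPKM with si-circTMEM45A. XRCC5 (ENSG00000079246; chromosome 2, 216107464 to 216206303), which encodes Ku80, was at 57.8, 58.8 and 56.3 FPKM with si-NC and 53.4, 52.6 and 52.1 FPKM with si-circTMEM45A. Neither gene had overlapping groups. The log2 fold changes were -0.14 ± 0.04 for XRCC6 and -0.13 ± 0.03 for XRCC5 (SE; limma adjusted p = 0.0382 and 0.0383). Both calls were lost without a variance trend (limma adjusted p = 0.0895 and 0.0887), and that of XRCC6 also with quantile normalization (0.0671). XRCC6 has 5 annotated pseudogenes that could share its reads. The ligase LIG4 and its scaffold XRCC4 did not pass, with intervals of -0.12 to 0.14 and -0.03 to 0.24.

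In mismatch repair neither gene passed. MSH6, a mismatch recognition subunit, averaged 11.7 ± 0.81 FPKM in the control and 11.3 ± 0.31 FPKM in the knockdown (SD, n = 3). PMS2, a nuclease subunit, was at 10.4 ± 0.44 and 10.1 ± 0.32 FPKM. PMS2 has 11 annotated pseudogenes or near copies, so its value is uncertain. The 95% intervals were -0.17 to 0.09 for MSH6 and -0.15 to 0.08 for PMS2.

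In base excision and single-strand break repair 0 of 3 genes passed in limma, and limma voom called LIG1 lower. At an unadjusted p under 0.05 in limma 1 was lower and 1 higher, against 13.8% and 20.3% of all tested genes. XRCC1, the scaffold that holds DNA ligase III, was at 6.19, 6.29 and 5.29 FPKM with si-NC and 6.93, 7.50 and 6.61 FPKM with si-circTMEM45A. Its groups did not overlap (log2 fold change 0.21 ± 0.07, SE; limma adjusted p = 0.0901), and gene models on the opposite strand cover 17.5% of its exon bases. LIG1, the ligase that joins replication fragments, was at 14.7, 14.0 and 13.4 FPKM with si-NC and 11.8, 13.1 and 12.6 FPKM with si-circTMEM45A. Its values were lower without overlap (log2 fold change -0.16 ± 0.05, SE; limma adjusted p = 0.082). PARP1, the break sensor that builds poly(ADP-ribose), was at 33.8 ± 0.95 and 33.0 ± 1.47 FPKM (SD, n = 3).

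Nucleotide excision repair was the route with the highest median log2 fold change of the list, 0.09 over 4 genes. Over 19 further tested genes of this route, from the wider list described below, the median was 0.03. It was also 0.03 over all tested genes. In limma 0 of the 4 passed, and limma voom called XPC higher. At an unadjusted p under 0.05 in limma 2 were higher and 0 lower, against 20.3% and 13.8% of all tested genes. XPC, the protein that first detects bulky lesions, was at 4.54, 5.17 and 4.78 FPKM with si-NC and 5.59, 5.66 and 5.76 FPKM with si-circTMEM45A. The groups did not overlap, and XPC lay just outside the threshold (log2 fold change 0.19 ± 0.06, SE; limma adjusted p = 0.0529). ERCC1, which with ERCC4 cuts the damaged strand, was at 7.05, 6.73 and 6.87 FPKM with si-NC and 7.48, 7.67 and 8.19 FPKM with si-circTMEM45A. It too was higher without overlap (log2 fold change 0.16 ± 0.05, SE; limma adjusted p = 0.0689). Opposite-strand gene models cover 30.4% of the XPC exon bases and 28.6% of those of ERCC1. ERCC2, a helicase of the transcription factor TFIIH, had an interval of -0.23 to 0.05. DDB2, which binds ultraviolet lesions in chromatin, had one of -0.08 to 0.14.

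Counted by overlap alone, 8 of the 32 genes (25.0%) had their highest knockdown value under their lowest control value, against 16.0% of tested genes, and 4 (12.5%) the reverse, against 23.3%. Of the 26 genes that did not pass, 21 had a 95% interval that held 0, and over all 26 the intervals ran from -0.37 to 0.42. For those 26 genes the design does not show that the levels were equal.

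**Figure D3:**
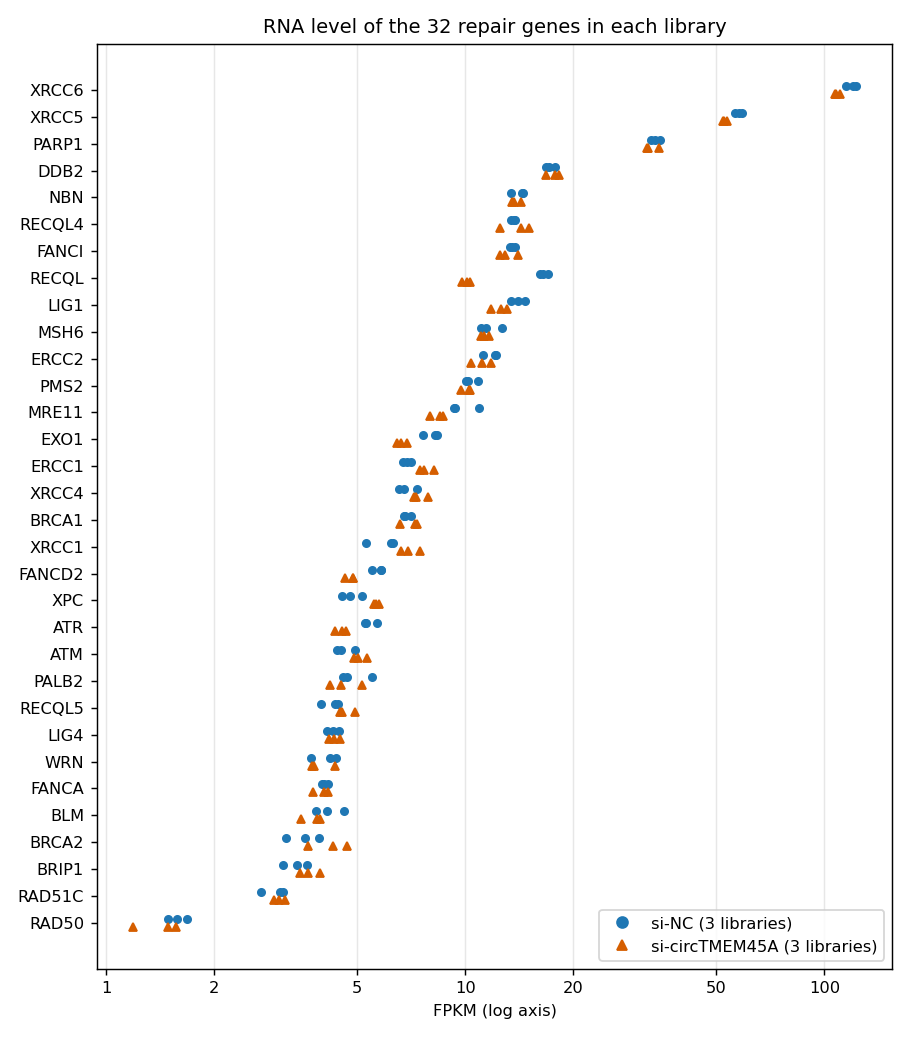
FPKM of the 32 genes in each library (x axis, log scale; circles si-NC, triangles si-circTMEM45A), ordered by mean level. XRCC6, XRCC5 and PARP1 lie above the rest, RAD50 lies lowest, and the separation of the RECQL groups is the widest.

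The levels of the 32 genes, compared per length as FPKM, spanned 75.9-fold. The mean over all libraries was 114 FPKM for XRCC6, 55.2 for XRCC5 and 33.4 for PARP1, and no other gene exceeded 30 FPKM. DDB2 came next at 17.4, and then NBN, RECQL4, FANCI, RECQL and LIG1 between 13.9 and 13.3. NBN, RECQL4 and FANCI overlap in both groups, whereas RECQL lies above the other 4 with si-NC and below them with si-circTMEM45A. Below 10 FPKM lay 20 of the 32 genes. The lowest 4 were BRCA2 (3.88), BRIP1 (3.54), RAD51C (2.995) and RAD50 (1.498), and the reads behind the 32 genes ran from 201 for RAD50 to 6813 for XRCC6 in a library.

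Ratios within a library do not depend on how libraries are scaled, and 15 pairs of genes whose products work as partners were compared in this way. The ratio of XRCC5 to XRCC6 was 0.483 with si-NC and 0.487 with si-circTMEM45A. Its log2 value moved by 0.01, less than the SD of 0.03 in si-NC. FANCD2 to FANCI went from 0.423 to 0.365, with a log2 difference of -0.21. MRE11 to NBN went from 0.700 to 0.607, also with a difference of -0.21, while RAD50 to MRE11 overlapped between groups. The largest difference was in XRCC1 to LIG3, whose log2 ratio was 0.70 ± 0.15 with si-NC and 1.13 ± 0.09 with si-circTMEM45A (SD, n = 3). Behind it lay higher XRCC1 values and lower values of the ligase gene LIG3, at 3.64 ± 0.11 and 3.20 ± 0.12 FPKM (limma adjusted p = 0.133). XRCC4 to LIG4, XPC to RAD23B and DDB2 to DDB1 were also without overlap, with log2 differences of 0.11, 0.17 and 0.10. The pairs BRCA1 with BARD1, BRCA2 with PALB2, BLM with TOP3A, ERCC1 with ERCC4 and ERCC2 with ERCC3 overlapped. In all 7 of the 15 pairs did not overlap, each with an exact two-sided permutation p of 0.1 and an adjusted p of 0.214 over the 15, so no pair passed in a design that cannot go below 0.1. Among single tested genes 16.0% were lower and 23.3% higher without overlap. No such share was computed for other gene pairs, so the count of 7 is not set apart from that of any pairs.

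**Figure D4:**
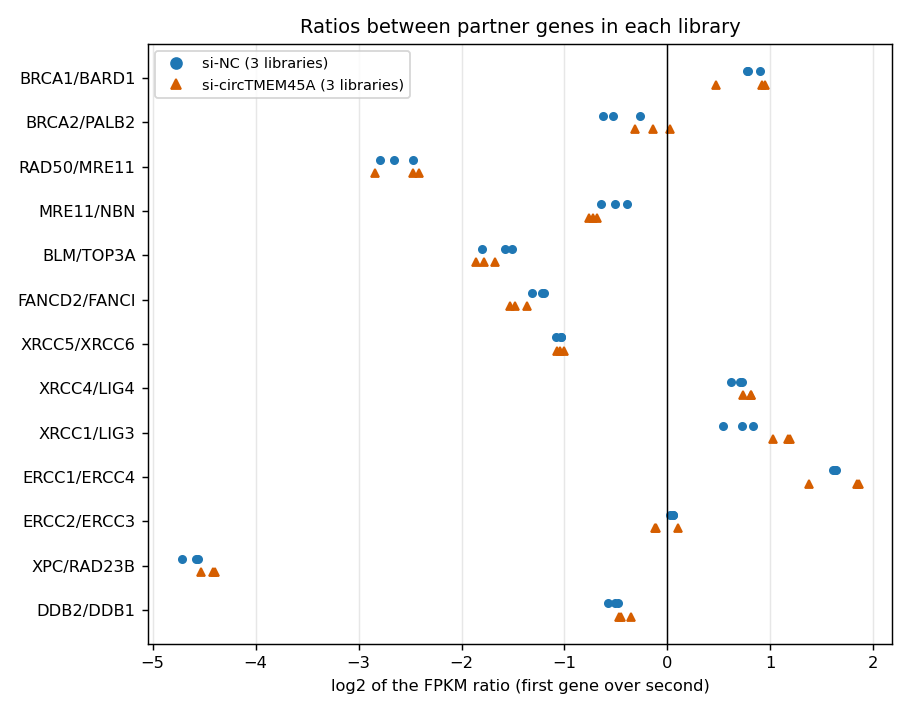
Log2 ratio of FPKM between partner genes (x axis) for 13 of the 15 pairs in each library (circles si-NC, triangles si-circTMEM45A). The groups coincide for XRCC5/XRCC6 and are separate for FANCD2/FANCI, MRE11/NBN, XRCC1/LIG3, XRCC4/LIG4, XPC/RAD23B and DDB2/DDB1.

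A wider list of 142 repair genes outside the 32 gave 141 in the table and 132 tested. Of these 8 fell and 3 rose in limma, against 7.64% and 11.1% of all tested genes, and the median log2 fold change was -0.00. In the Fanconi pathway FANCL, the ligase subunit that ubiquitinates FANCD2, fell from 11.0 ± 0.12 to 8.71 ± 1.01 FPKM (SD, n = 3), 1 of 15. In homologous recombination RAD51AP1, which stimulates strand pairing, fell from 16.8 ± 0.61 to 13.4 ± 0.74 FPKM, and SEM1, a small BRCA2 partner and proteasome subunit, rose from 5.17 ± 0.17 to 6.39 ± 0.26 FPKM, out of 22 tested. Among genes around the kinases TOPBP1, the activator of ATR, fell from 16.0 ± 0.23 to 13.6 ± 0.74 FPKM, 1 of 17.

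In end joining the kinase gene PRKDC fell from 65.0 ± 1.69 to 59.0 ± 1.72 FPKM (SD, n = 3) and RIF1, which shields ends from resection, fell from 8.32 ± 0.36 FPKM with a log2 fold change of -0.22 ± 0.05 (SE). SHLD2, a shieldin subunit of the same branch, rose from 7.76 ± 0.37 to 11.4 ± 0.97 FPKM, the largest rise of the wider list (log2 fold change 0.49 ± 0.07, SE; limma adjusted p = 0.00448). SHLD2 has 3 annotated pseudogenes that could share its reads, and a gene model on the opposite strand covers 10.9% of its exon bases. In nucleotide excision repair the ubiquitin ligase scaffold CUL4B fell from 27.8 ± 1.59 to 22.9 ± 0.31 FPKM among 19 tested. RAD18, the ligase that starts translesion synthesis, fell from 5.98 ± 0.13 to 5.10 ± 0.16 FPKM. In base excision 0 of 21 passed in limma. At an unadjusted p under 0.05 in limma 6 were lower and 2 higher, against 13.8% and 20.3% of all tested genes. The 3 tested partners of BLM had 0 called, and 0 at an unadjusted p under 0.05. CUL4B, RAD51AP1 and SHLD2 kept their limma call without each library in turn. PRKDC lost it in all 6 of those fits (adjusted p up to 0.135). RAD18 lost it in 5, TOPBP1, FANCL and RIF1 in 4 each and SEM1 in 2.

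**Figure D5:**
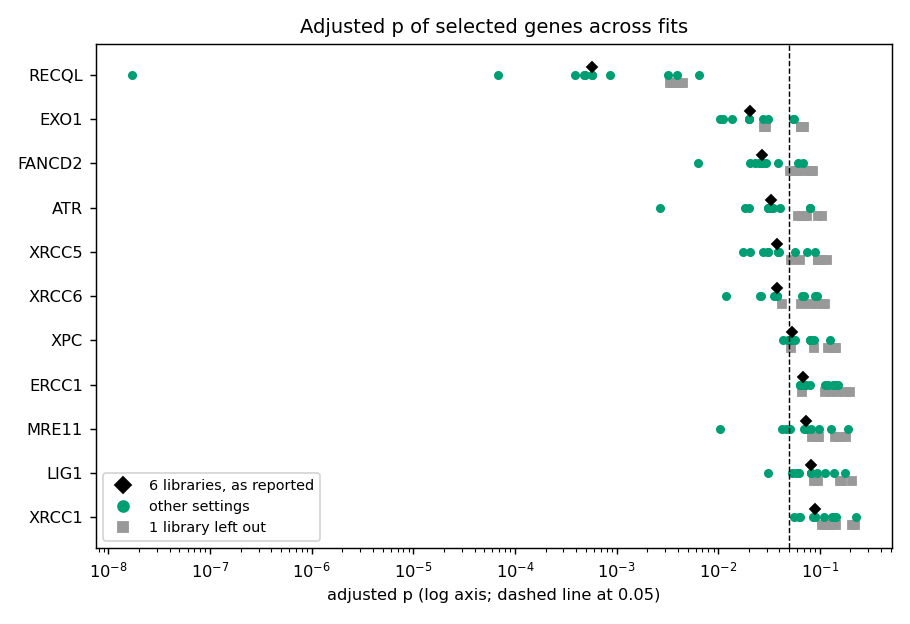
Adjusted p (x axis, log scale) of the 11 genes of the list with an unadjusted p under 0.05, for the fit with all 6 libraries (diamonds), other settings (circles) and fits that leave out 1 library (squares); the dashed line marks 0.05. RECQL stays below the line throughout, and the other genes lie on both sides of it or above it.

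Other measures that moved with the groups stand beside these results, and their part in them was not tested. Of 20 cell cycle genes 5 fell and 1 rose in limma, with a median log2 fold change of -0.12, against 0.03 over all tested genes. Among all tested genes 7.64% fell and 11.1% rose, the shares that stand beside each list in this paragraph. The summed level of the 20 was 819 to 853 FPKM with si-NC and 732 to 766 FPKM with si-circTMEM45A. The replicative helicase gene MCM3 and the mitotic kinase gene AURKA were among those that fell. Both kept their limma call without each library in turn, which was not so for every cell cycle gene that fell. Of 16 tested p53 targets AEN rose and CDKN1A fell in the limma fit of all 6 libraries. With 1 library dropped AEN stayed called in 3 of 6 limma fits and lost the call when si-NC replicate 2, si-NC replicate 3 or si-circTMEM45A replicate 2 was the one dropped (adjusted p up to 0.0616). CDKN1A stayed called in 1 of 6, that without si-circTMEM45A replicate 3 (adjusted p up to 0.134 in the others). The host gene TMEM45A averaged 3.12 ± 0.19 FPKM in the control and 2.12 ± 0.22 FPKM in the knockdown (SD, n = 3; limma adjusted p = 0.0167, lost when si-NC replicate 1 (0.057), si-NC replicate 3 (0.0548) or si-circTMEM45A replicate 3 (0.0513) was left out). The circular RNA has no value of its own in a gene-level table. Squamous markers were expressed in both groups, with 4 of 7 tested lower and 1 higher, and with KRT5 at 351 to 373 FPKM with si-NC and 231 to 250 FPKM with si-circTMEM45A and TP63 at 26.9 to 28.4 and 18.6 to 21.7 FPKM. KRT6A and SOX2 lay below the filter. Of fibroblast markers 3 of 5 in the table were tested and 2 fell, PDPN and FBLN1, with a list sum of 19.9 to 22.3 FPKM with si-NC and 15.4 to 16.9 FPKM with si-circTMEM45A, while PDGFRB reached at most 0.0337 FPKM. The call of FBLN1 was lost when si-NC replicate 3 or replicate 2 of si-circTMEM45A was dropped (limma adjusted p up to 0.0607). Of columnar epithelial markers 3 of 5 in the table were tested, each with a log2 fold change above 0, and 1 rose, MUC1 (limma adjusted p = 0.0481), a call kept in 1 of 6 fits, that without si-NC replicate 2 (up to 0.127 in the others). KRT8 was higher without overlap but did not pass (limma adjusted p = 0.12), and the columnar sum was 709 to 732 FPKM with si-NC and 720 to 781 FPKM with si-circTMEM45A. None of the 5 immune or 4 endothelial genes in the table was tested, and the immune sum was 0.625 to 1.41 and 0.652 to 0.952 FPKM. The leukocyte marker PTPRC reached at most 0.0131 FPKM and the endothelial marker PECAM1 at most 0.0153 FPKM. The endothelial sum was 0.786 to 1.22 and 1.07 to 1.41 FPKM.

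Many of the 32 genes have a start region close to that of another gene. The annotated start of 17 of them (53.1%) lay within 1000 bases of that of a protein-coding gene read in the opposite direction, against 18.5% of 10369 tested protein-coding genes. Of the 17 neighbours 13 were tested, and 2 rose and 1 fell, shares near those of all tested genes (11.1% and 7.64%). AIMP2, a scaffold of the aminoacyl-tRNA synthetase complex that starts 120 bases from PMS2, rose (log2 fold change 0.44 ± 0.04, SE; limma adjusted p = 0.00138), while PMS2 did not pass. NPAT, a histone gene activator beside ATM, fell (log2 fold change -0.28 ± 0.05, SE; limma adjusted p = 0.0138), while ATM had a positive value that did not pass. DCTN5, a dynactin subunit beside PALB2, rose (log2 fold change 0.22 ± 0.04, SE; limma adjusted p = 0.0134). DESI1, which starts 23 bases from XRCC6, did not pass. Differences between the members of a pair were not tested.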

How the data were processed

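The 6 KYSE-150 libraries (3 si-NC, 3 si-circTMEM45A) were grouped by sample title. The tools named, per the submitters' processing notes, are HTSeq, StringTie 2.1.6, TopHat2, HISAT2 2.2.1 and cutadapt 1.9, with build GRCh38. What each did, the annotation release and the strand setting are unstated (not given in the sources used here). FPKM values deposited by the authors cover 29816 Ensembl genes, and 29593 matched a symbol. Multiplied by GENCODE 29 union exon lengths, 100% of values became whole reads (tolerance 0.001), whose sums are the totals given above. They served voom and the read ranges. FPKM carries no correction for composition, and reads shared by overlapping genes can be lost.

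limma 3.58.1 in R 4.3.3 used a mean-variance trend and two-sided tests, and Benjamini-Hochberg adjustment covered all 12676 tested genes. A log2(FPKM + 1) fold change understates changes of low genes. Fits without 1 library kept genes at FPKM of at least 1 in 3 of the remaining libraries. Ratios used plain FPKM. The code was tested on simulated data.

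The 32 genes, the wider lists and the pairs were chosen with earlier results of these data known, so no list was tested. Some genes and pairs are counted but not reported here by name. Named were all 32, the called wider genes (up to 4 a pathway, by smallest p), the pairs, TMEM45A, at most 2 called genes from any further list, and, after their values were seen, PYROXD1, GOLT1B and the head-to-head neighbours. Python 3.11.15, numpy 2.4.6, pandas 2.3.3 and matplotlib 3.10.9 were used. Pseudocounts, filters, scalings, variance settings and voom were varied, libraries were left out in turn, and a block for replicate number was tried.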

Additional observations from a re-analysis of the deposited data

How the results depend on the processing

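The number of the 32 genes called lower, 6 in the limma fit reported, was 1 with no filter on low values, 1 with the replicate block and 1 to 2 when a library was left out. Of all genes 1.76% were lower with no filter and 4.43% to 7.03% when a library was left out. With the replicate block 720 of the 12676 tested genes were lower, and RECQL was the 1 of the list. Whether the replicate numbers pair the libraries is not settled by these values. Same-numbered libraries deviated from their group means with r = 0.03, 0.01 and 0.05 (replicates 1, 2 and 3), and all correlations were weak. Each si-circTMEM45A library and si-NC replicates 1 and 3 correlated best with their own number. The exception was si-NC replicate 2, which did so with si-circTMEM45A replicate 1 (r = 0.02). The number called higher, 0 as reported, was 1 with FPKM of at least 5 (XPC) and 2 in limma voom (XPC and BRCA2). Of the wider genes, 8 lower and 3 higher as reported, 3 were lower with no filter, against 1.76% of all genes. In limma voom 13 were lower and 8 higher, against 11.1% and 15.4% of all genes. Without 1 library 2 to 8 were lower, against 4.43% to 7.03% of all genes, and 2 to 5 were higher. In those fits 786 to 1092 of all genes were higher, with 12408 to 12509 tested. With median-of-ratios scaling the median of all genes moved from 0.03 to -0.00, and the split of all called genes from 1411 higher and 969 lower to 1022 and 1239.

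The log2 fold changes that changed sign belonged to genes called in none of these fits. For RECQL4, BRCA1, LIG4 and DDB2 they were -0.00563, -0.00152, -0.0187 and -0.00366 with median-of-ratios scaling and -0.00768, -0.00151, -0.0136 and -0.000923 with quantile normalization. Without 1 library in turn they ranged from -0.0247 to 0.0993 for RECQL4, -0.0135 to 0.0605 for RAD51C, -0.0471 to 0.00758 for FANCA, -0.0802 to 0.00765 for MSH6 and -0.0122 to 0.0333 for LIG4. The cause of these changes was not tested. With 201 to 6813 reads a gene and library and standard errors of 0.03 to 0.10, changes of the size seen for XRCC5 lie near the threshold.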

Other observations

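Some repair genes outside the 32 were listed at very low levels. The end-joining factor NHEJ1 had a mean of 0.07 FPKM over the 6 libraries, the excision nuclease gene ERCC5 0.57 and the translocase gene RAD54B 0.67. In the GENCODE annotation another gene model on the same strand covers 65.4%, 63.2% and 59.1% of their exon bases. RAD50, with 79.7%, had the lowest level of the 32 genes. HLTF, at 0.0342 FPKM, and MGMT, at 0.00555 FPKM, had no same-strand overlap. The part of the overlaps in these levels was not tested.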
